A study of Mus musculus with 12 samples.

Results

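The Nodal pathway was followed through 9 of the 46517 genes listed in the count files, chosen by name for their role in the pathway. They were the ligands *Nodal* and *Gdf3*, the coreceptors *Tdgf1* (Cripto) and *Cfc1* (Cryptic), the receptor *Acvr2b*, the antagonists *Lefty1* and *Lefty2*, the SMAD partner *Foxh1* and the inhibitory SMAD gene *Smad7*. All 9 were found by Ensembl identifier. RNA came from 12 samples in 4 groups of 3, which were WT and *Meteor* KO mouse ESCs at day 0 and cells of the same genotypes at day 3 of cardiac differentiation. *Meteor* is a transcribed enhancer upstream of *Eomes*, and KO cells carry its deletion. Every group, WT included, derives from an *Eomes* EGFP reporter line labelled as C57BL/6, in which an EGFP cassette sits at the start of *Eomes*. Day 0 cells grew undifferentiated on mouse embryonic fibroblast feeders in ES cell medium, and day 3 cells were embryoid bodies formed in hanging drops without any sorting. KO cells were picked as clones after CRISPR-Cas9 nickase editing. The labels name no clone, so a clone effect and the effect of the deletion cannot be told apart. Nor do they say whether replicates were separate cultures, and p-values therefore measure the spread between these samples only.

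Nodal is a secreted TGF-beta family ligand that patterns the early embryo and induces the primitive streak, from which mesoderm and endoderm arise. It signals through activin receptors together with an EGF-CFC coreceptor, and SMAD2 and SMAD3 then enter the nucleus with SMAD4 and bind target genes with partners such as FOXH1. Lefty proteins are secreted inhibitors that are themselves induced by the pathway. ESCs and the epiblast also express several of these genes.

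RefSeq promoters on GRCm38.p6 were matched for 4 of the 9 genes, *Nodal*, *Tdgf1*, *Cfc1* and *Acvr2b*. The 250 bases before the start site of *Nodal* and of both coreceptors are shown, because they encode the ligand and the coreceptors it needs, whose values by sample follow. They lie on GRCm38.p6 at chr10:61417722-61417971 (plus strand) for *Nodal*, chr9:110946159-110946408 (minus strand) for *Tdgf1* and chr1:34535398-34535647 (plus strand) for *Cfc1*.
Nodal: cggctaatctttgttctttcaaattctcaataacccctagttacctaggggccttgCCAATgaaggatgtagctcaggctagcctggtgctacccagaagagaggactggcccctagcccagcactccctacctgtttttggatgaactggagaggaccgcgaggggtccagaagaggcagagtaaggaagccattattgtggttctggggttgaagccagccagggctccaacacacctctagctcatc
Tdgf1: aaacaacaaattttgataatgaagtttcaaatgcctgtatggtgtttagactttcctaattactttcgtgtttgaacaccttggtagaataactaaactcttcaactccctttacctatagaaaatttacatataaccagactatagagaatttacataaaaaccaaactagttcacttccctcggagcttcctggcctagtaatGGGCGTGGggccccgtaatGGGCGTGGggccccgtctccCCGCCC
Cfc1: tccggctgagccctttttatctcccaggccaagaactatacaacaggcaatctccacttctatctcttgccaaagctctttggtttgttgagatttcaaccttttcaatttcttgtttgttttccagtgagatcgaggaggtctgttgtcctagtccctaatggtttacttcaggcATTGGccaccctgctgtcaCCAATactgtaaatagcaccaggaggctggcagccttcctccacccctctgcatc
Capitals mark matches on either strand to the letters searched, and no match overlaps another. The CCAAT box (CCAAT) occurred once in *Nodal*, 194 bases before the start, and at 74 and 55 bases before the start in *Cfc1*. It is held by 33.8% of the 32851 promoters of this length in the table. *Tdgf1* held the letters GGGCGTGG at 45 and 26 bases before the start, within a repeated stretch, and these letters occur in 4.79% of promoters. It also held a GC box (GGGCGG), found in 32.7% of promoters. GGGCGTGG was added to the search after the sequences had been read. The FOXH1-type letters AATCCACA (0.718% of promoters), the SMAD half-site CAGACA (17.1%) and the TATA box TATAAA (12.4%) were not in these windows.

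Depth was similar across samples, between 17455927 and 23910943 reads counted on genes. The annotated transcripts of the deleted locus checked the labels. *Platr11* had 0.51 to 6.11 CPM (read counts relative to sequencing depth, scaled by TMM) in the 6 WT samples and 0.06 CPM at most in the 6 KO samples, and ENSMUSG00000103968 had 1.35 to 5.84 CPM in WT and was at 0 in KO. Some WT libraries stood apart in cell type markers. At day 3, WT replicate 3 had a sum of 137.5 CPM over 6 visceral endoderm markers, against 4.3 and 15.5 in the other WT replicates and 3.3 to 29.0 in KO. *Apob* alone gave 101.97 CPM there. The same library had 664.0 CPM over 6 primitive streak markers, against 1419.5 and 1496.0, and 595.6 CPM over 6 pluripotency markers, against 1107.9 and 1118.5. At day 0, WT replicate 3 had 161.0 CPM over the streak markers, against 43.9 and 72.6. Over 8 fibroblast markers, day 0 samples, grown on feeders, had 80.3 to 316.8 CPM and day 3 samples 39.3 to 80.6 CPM. At day 0 replicates 1, 2 and 3 had 80.3, 242.0 and 121.1 CPM in WT and 116.8, 316.8 and 198.1 CPM in KO. KO was thus higher in each pair of the same number, though the ranges overlapped. The part of these markers in differences between the genotypes at day 0 was not tested. *Col1a1* had 30.06 to 148.84 CPM at day 0 and 4.45 to 15.36 CPM at day 3. *Dcn* went the other way, with 4.80 to 6.57 CPM in KO at day 3 and 0.76 to 2.70 CPM at day 0. *Col1a2*, *Col3a1*, *Postn*, *Thy1* and *Pdgfrb* overlapped between the days. A feeder source was not tested. *Lum*, one of these markers, stayed below 1 CPM in each library. In whole embryoid bodies, fewer cells of a type and less RNA per cell cannot be told apart.

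In WT ESCs the coreceptor gene *Tdgf1* had by far the highest level per length among the 9 genes. Its mean was 284.53 ± 46.71 RPKM (CPM per kilobase of merged exons, SD, n = 3). *Lefty2* followed with 84.75 ± 5.72 RPKM and *Lefty1* with 76.65 ± 15.40 RPKM, which overlap within their spread. *Gdf3* (39.90 ± 8.29 RPKM) and *Nodal* (37.79 ± 7.32 RPKM) did not differ beyond their spread either. *Foxh1* had 28.06 ± 8.34 RPKM, *Smad7* 10.39 ± 3.82 RPKM and *Acvr2b* 4.05 ± 0.97 RPKM. *Cfc1* was last with 0.38 ± 0.13 RPKM, from 6 to 10 reads per library. At day 3 the order in WT had *Tdgf1* first at 254.89 ± 116.30 RPKM and *Foxh1* second at 65.92 ± 16.29 RPKM. *Gdf3* was then last at 3.87 ± 0.82 RPKM.

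**Figure D1:**
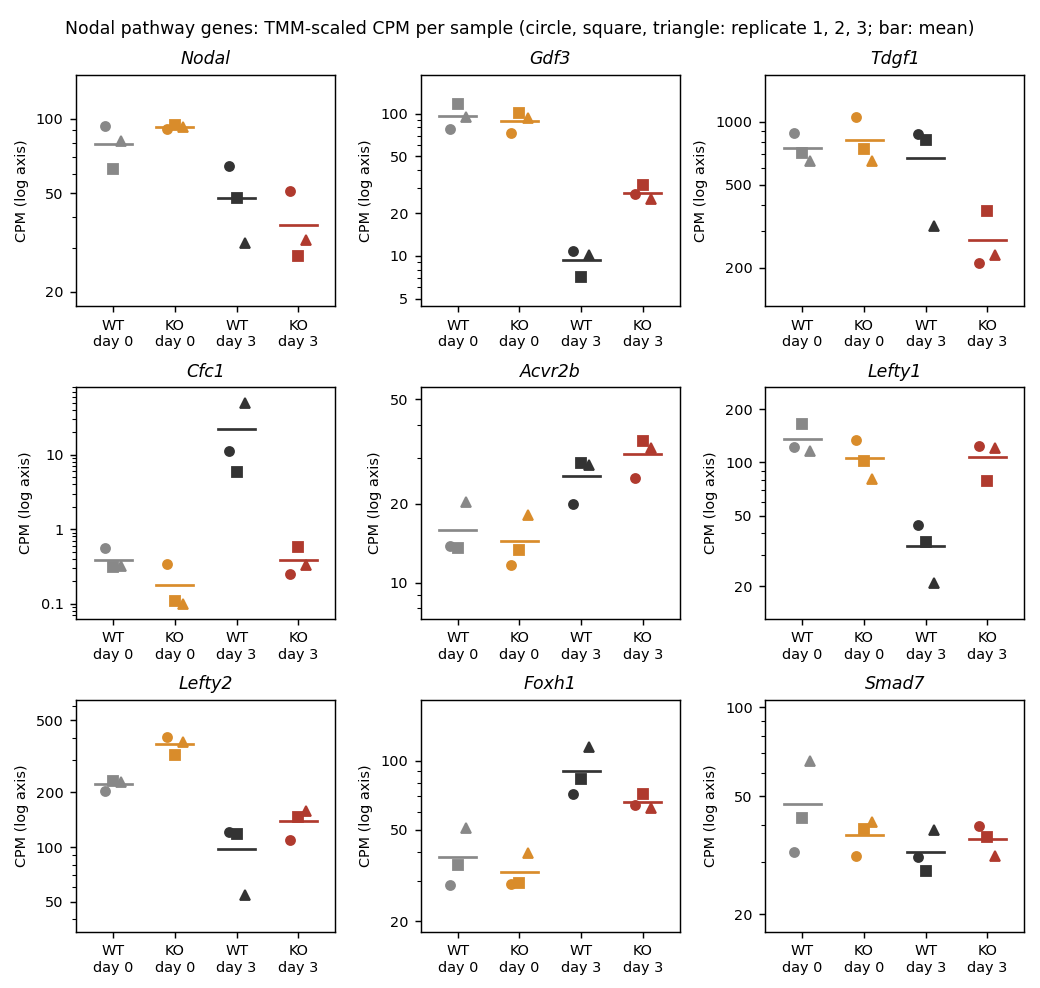
Each panel plots TMM-scaled CPM of a gene on a log axis for the 12 samples, with circles, squares and triangles for replicates 1, 2 and 3 and a bar for the mean of each group of 3. *Lefty1* and *Gdf3* are higher in KO than in WT at day 3 without overlap, and *Cfc1* exceeds 5 CPM in the 3 WT samples of day 3 only.

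KO and WT were first compared in undifferentiated ESCs, to ask whether the deletion altered the pathway before differentiation. None of the 9 genes passed an adjusted p of 0.05 in edgeR's quasi-likelihood test, in which 20.4% of all tested genes were called, 9.56% higher and 10.9% lower. At an unadjusted p below 0.05, 1 gene remained, *Lefty2*. limma-voom with the same design also called 0 and DESeq2 called 1, again *Lefty2*. With the replicate block set within each day, edgeR called 1 of the 9, also *Lefty2*, and 5447 of all 15673 tested genes, against 3201. The median log2 fold change of the 9 genes was -0.15, against -0.01 for all tested genes.

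*Lefty2*, which encodes an inhibitor that binds Nodal and its coreceptors, had 204.08, 230.97 and 228.81 CPM in WT and 401.28, 321.73 and 378.25 CPM in KO at day 0. The groups were apart and KO was higher in all 3 pairs of the same replicate number. The log2 fold change was 0.73 with a standard error (SE) of 0.25 and a 95% interval of 0.17 to 1.3 (adjusted p = 0.0688 in edgeR). Over 9 other settings it ranged from 0.69 to 0.74, with an adjusted p between 0.000427 and 0.0714, and 5 of them passed. With the replicate block set within each day, the adjusted p was 0.0413. Of the 12 fits without 1 library, 1 passed, that without WT replicate 3 of day 3 (adjusted p = 0.00366), and the highest adjusted p was 0.215. Summed pluripotency markers were also apart at this day, at 2613.4 to 3111.5 CPM in WT and 3461.1 to 3848.8 CPM in KO, and their part in the result was not tested. The neighbouring gene *Lefty1* did not share the increase at this day. It had 122.20, 165.82 and 116.25 CPM in WT and 134.25, 102.49 and 80.84 CPM in KO, a log2 fold change of -0.38 (SE 0.24, adjusted p = 0.304 in edgeR) with overlapping groups. Both genes are on the plus strand of chromosome 1 (GRCm38), *Lefty2* from 180893108 to 180899103 and *Lefty1* 35.9 kb further on, from 180935022 to 180938400. Of the 100-base words of their longest transcripts, 4.8% in *Lefty1* and 3.07% in *Lefty2* occur in the other gene, so few reads could be lost between them.

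*Nodal*, *Gdf3*, the coreceptor genes and *Acvr2b* did not pass the test at day 0. *Nodal* had 93.28, 62.86 and 81.36 CPM in WT and 91.01, 94.56 and 92.37 CPM in KO. The KO samples lay within or just above the WT range, and the log2 fold change was 0.25 (95% interval -0.19 to 0.70, adjusted p = 0.411 in edgeR). *Gdf3*, a ligand related to Nodal that also needs Cripto, changed by -0.12 (95% interval -0.52 to 0.29, adjusted p = 0.703 in edgeR). For *Tdgf1* the value was 0.12 (95% interval -0.48 to 0.72, adjusted p = 0.807 in edgeR). *Acvr2b*, the type II receptor gene, lies on chromosome 9 from 119402118 to 119434995, 996.0 kb from the transcripts of the deleted locus. Its CPM was 13.56 to 20.27 in WT and 11.65 to 18.11 in KO, for a log2 difference of -0.15 (95% interval -0.47 to 0.18, adjusted p = 0.52 in edgeR). *Foxh1* (-0.21), *Smad7* (-0.31) and *Cfc1* (-1.14) had adjusted p-values of 0.374, 0.32 and 0.489 in edgeR. *Cfc1* had 10 reads or fewer in each of these 6 libraries, where a change is hardly detectable.

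The course of normal differentiation was then read from WT cells at day 3 against day 0. Of the 9 genes 4 fell, 3 rose and 2 did not pass, while 56.2% of all tested genes were called in this comparison, 30.7% higher and 25.5% lower. The genes that fell were both ligands and both Lefty genes. *Gdf3* fell from 77.30, 117.42 and 95.29 CPM to 10.86, 7.12 and 10.18 CPM, a log2 fold change of -3.34 (SE 0.20, adjusted p = 2.39e-06 in edgeR). *Lefty1* fell to 44.32, 35.35 and 20.93 CPM, by 2.05 on the log2 scale (SE 0.25, adjusted p = 0.000116 in edgeR). The groups were apart for both genes. *Lefty2* fell to 120.38, 117.79 and 54.74 CPM, with a log2 fold change of -1.20 (SE 0.26, adjusted p = 0.00316 in edgeR). *Nodal* fell to 64.74, 47.91 and 31.53 CPM, a log2 fold change of -0.74 (SE 0.20, adjusted p = 0.0105 in edgeR), and the highest day 3 sample lay above the lowest day 0 sample. Without the WT libraries numbered 3 of both days, an alternative chosen after seeing the data, *Nodal* changed by -0.46 with an adjusted p of 0.0829 in edgeR.

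*Cfc1*, *Foxh1* and *Acvr2b* rose in WT cells. *Cfc1* entered the test only through these WT samples of day 3, so a rise was required for it to be tested. *Cfc1*, the coreceptor gene known from left-right patterning and early mesoderm, was nearly silent at day 0 and reached 11.14, 5.82 and 50.08 CPM at day 3. Its log2 fold change was 5.44 (SE 0.72, adjusted p = 0.000183 in edgeR). The highest value belonged to replicate 3, the library with the visceral endoderm markers, and whether the marker content contributed was not tested. Without that library *Cfc1* still rose, by 4.20 on the log2 scale. *Foxh1*, a forkhead factor that brings SMAD complexes to DNA, rose from 28.86, 35.11 and 50.95 CPM to 71.54, 83.74 and 114.67 CPM, a log2 fold change of 1.24 (SE 0.15, adjusted p = 0.000113 in edgeR). *Acvr2b* rose by 0.68 (SE 0.14, adjusted p = 0.00272 in edgeR). *Tdgf1* changed by -0.24 (adjusted p = 0.465 in edgeR). It had 871.29 and 815.99 CPM in replicates 1 and 2 of day 3 but 317.66 CPM in replicate 3, and without that library the value was 0.02. *Smad7* changed by -0.50 (SE 0.20, adjusted p = 0.0582 in edgeR). Its adjusted p lay between 0.0195 and 0.188 over 9 other settings, of which 4 passed, the replicate block within each day among them (0.0195).

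At day 3, 4 of the 9 genes differed between *Meteor* KO and WT cells, 2 lower and 2 higher. In this comparison 30.9% of all tested genes were called, 16.7% lower and 14.3% higher. Both coreceptor genes were lower in KO, and *Gdf3* and *Lefty1* were higher. The median log2 fold change of the 9 genes was 0.17, against 0 for all tested genes. These 4 calls held in each of the other settings that tested the gene and in all 12 fits that left out 1 library. Among them, *Cfc1* passed the filter on low counts only through WT samples of day 3, so a difference was required for it to be counted. With the replicate block within each day 6 of the 9 were called, *Acvr2b* and *Foxh1* besides, and 7347 of all tested genes, against 4846. WT samples of day 3 also enter the course in WT described above, so the comparisons are not independent.

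**Figure D2:**
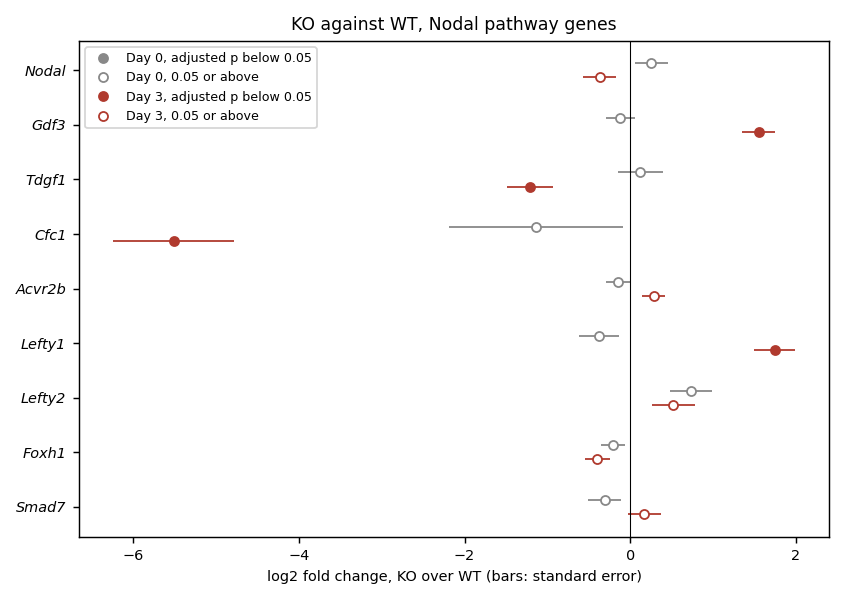
Log2 fold changes of KO over WT at day 0 (grey) and day 3 (red) for the 9 genes, with bars for the standard error and filled points where the adjusted p was below 0.05 in edgeR. No point is filled at day 0, and *Gdf3*, *Tdgf1*, *Cfc1* and *Lefty1* are filled at day 3.

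The coreceptors bind the ligand and present it to the receptors. *Tdgf1* had 871.29, 815.99 and 317.66 CPM in WT and 209.41, 375.09 and 230.02 CPM in KO at day 3. KO was lower in all 3 pairs, although the lowest WT sample fell between KO values. The log2 fold change was -1.21, a 2.32-fold lower level (SE 0.28, adjusted p = 0.00908 in edgeR). Without WT replicate 3 it was -1.49. Of the 100-base words of its longest transcript, 4.69% occur in the pseudogene *Tdgf1-ps1*. *Cfc1* had 0.25, 0.57 and 0.33 CPM in KO, from 5 to 10 reads per library, against 5.82 to 50.08 CPM in WT. The log2 fold change was -5.51, a 45.7-fold lower level (SE 0.73, adjusted p = 0.0006 in edgeR). Leaving out WT replicate 3 gave -4.21. *Cfc1* passed the filter on low counts only through the WT samples of day 3, so a difference there was required for it to be tested at all. The genes *Prss40* and *Gm28419* overlap it on the other strand and had 0.06 CPM at most in any library.

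The ligand genes did not move together. *Nodal* had 64.74, 47.91 and 31.53 CPM in WT and 51.15, 28.02 and 32.34 CPM in KO, and the groups overlapped. Its log2 fold change was -0.37 (95% interval -0.82 to 0.08, adjusted p = 0.189 in edgeR). Without WT replicate 3 the value was -0.57 with an adjusted p of 0.0442 in edgeR. It was the only 1 of the 12 fits without 1 library to pass, and 0 of 9 other settings did. *Gdf3* kept 27.08, 31.31 and 25.03 CPM in KO, each above the WT values of 10.86, 7.12 and 10.18 CPM. The log2 difference was 1.55, or 2.93-fold (SE 0.20, adjusted p = 0.000487 in edgeR).

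Among the antagonists, *Lefty1* was higher in KO at 124.54, 78.77 and 120.52 CPM, against 44.32, 35.35 and 20.93 CPM in WT. The lowest KO sample lay above the highest WT sample. The log2 fold change was 1.74, or 3.34-fold (SE 0.25, adjusted p = 0.000919 in edgeR). Summed pluripotency markers overlapped at day 3, at 1094.2 to 1186.2 CPM in KO and 595.6 to 1118.5 CPM in WT, but the 6 markers did not move together. *Sox2* (1.35, adjusted p = 3.6e-06), *Zfp42* (0.76, adjusted p = 0.00323) and *Esrrb* (0.68, adjusted p = 0.0173 in edgeR) were higher in KO without overlap, as *Gdf3* and *Lefty1* were. *Pou5f1* (0.40) was also higher in KO without overlap but was not called. *Nanog* (-0.64) and *Klf4* (-0.58) had lower values in KO and were not called either. The part of these markers in the values of *Gdf3* and *Lefty1* was not tested. *Lefty2* had 109.75, 146.12 and 158.81 CPM in KO and 120.38, 117.79 and 54.74 CPM in WT, with a log2 fold change of 0.52 (95% interval -0.05 to 1.10, adjusted p = 0.151 in edgeR). It was lower in KO in the pair numbered 1 and higher in the other pairs, and its value fell to 0.19 without WT replicate 3.

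*Acvr2b*, *Foxh1* and *Smad7* did not pass the test at day 3. *Acvr2b* had 19.95 to 28.57 CPM in WT and 25.03 to 34.72 CPM in KO, and was higher in KO in all 3 pairs by 0.28 on the log2 scale (95% interval -0.04 to 0.59, adjusted p = 0.164 in edgeR). The replicate block within each day gave an adjusted p of 0.0241. Of 9 other settings 2 passed, and 0 of the 12 fits without 1 library did. *Foxh1* had 71.54 to 114.67 CPM in WT and 62.57 to 71.95 CPM in KO, a log2 fold change of -0.40 (95% interval -0.73 to -0.07, adjusted p = 0.0667 in edgeR). With the block within each day its adjusted p was 0.0262, and over 9 other settings it lay between 0.0262 and 0.233. *Smad7*, which encodes an inhibitor of the receptors, changed by 0.17 (95% interval -0.29 to 0.63, adjusted p = 0.568 in edgeR).

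In KO cells, 4 of the 9 genes fell from day 0 to day 3 and 2 rose, with 56.6% of all tested genes called, 29.4% higher and 27.2% lower. *Nodal* fell by 1.37 on the log2 scale (SE 0.20, adjusted p = 0.000296 in edgeR), *Gdf3* by 1.67, *Tdgf1* by 1.57 and *Lefty2* by 1.41. *Acvr2b* rose by 1.11 and *Foxh1* by 1.05. *Lefty1* had 134.25, 102.49 and 80.84 CPM at day 0 and 124.54, 78.77 and 120.52 CPM at day 3, a change of 0.07 (95% interval -0.47 to 0.61, adjusted p = 0.833 in edgeR). *Cfc1* changed by 1.06 with a standard error of 1.05 (adjusted p = 0.413 in edgeR), at fewer than 1 CPM in all 6 KO samples. *Smad7* changed by -0.02.

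**Figure D3:**
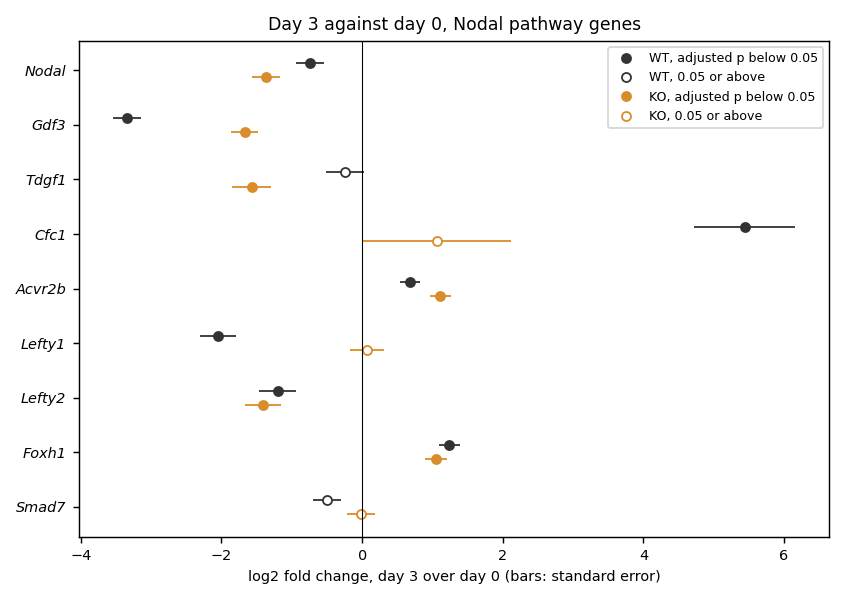
Log2 fold changes of day 3 over day 0 in WT (black) and KO (orange) for the 9 genes, with bars for the standard error and filled points where the adjusted p was below 0.05 in edgeR. *Lefty1* falls in WT and stays near 0 in KO, whereas *Foxh1*, *Acvr2b* and *Lefty2* move the same way in both genotypes.

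Whether the courses differed was tested with the interaction term, the KO effect at day 3 minus that at day 0. It was called for 3 of the 9 genes, 2 upward and 1 downward, against 15.5% of all tested genes, 8.21% upward and 7.34% downward. *Lefty1* had the value 2.12 (SE 0.35, adjusted p = 0.00392 in edgeR) and *Gdf3* 1.67 (SE 0.27, adjusted p = 0.00358 in edgeR). Both passed in all 8 other settings and all 12 fits without 1 library. *Tdgf1* had -1.33 (SE 0.39, adjusted p = 0.0432 in edgeR). This call was lost without the replicate block (-1.43, adjusted p = 0.0671) and in 10 of the 12 fits without 1 library, where the adjusted p reached 0.101. *Cfc1* had the largest value, -4.37, with a standard error of 1.45 and an adjusted p of 0.0684 in edgeR. It passed with the block within each day (-4.56, adjusted p = 0.0241) and without WT replicate 3 of day 3 (-3.11, adjusted p = 0.0335). The value for *Nodal* was -0.63 (95% interval -1.26 to 0.01, adjusted p = 0.166 in edgeR), and it passed without that library (-0.83, adjusted p = 0.0466). For *Nodal* this was the only 1 of the 12 fits without 1 library to pass, and 0 of 8 other settings did. *Acvr2b* had 0.43 (adjusted p = 0.186 in edgeR) and passed only with the block within each day (0.42, adjusted p = 0.03). For *Lefty2* it was -0.21 (adjusted p = 0.746 in edgeR) and for *Foxh1* -0.19 (adjusted p = 0.594 in edgeR).

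Ratios between levels per length compare the Lefty genes, the ligands and the coreceptors within each sample. They were chosen after the values had been seen and were not tested. The summed RPKM of *Lefty1* and *Lefty2* over that of *Nodal* was 2.31, 2.85 and 2.18 in WT and 4.62, 7.53 and 8.38 in KO at day 3. At day 0 the ranges overlapped, with 3.32 to 6.09 in WT and 4.02 to 5.30 in KO. This sum leaves out other antagonists, so it is not the whole balance of antagonist to ligand. Among those left out, the Nodal inhibitor gene *Cer1* had a mean of 45.25 RPKM in WT and 0.24 RPKM in KO at day 3. *Lefty2* over *Lefty1* was 1.12, 0.938 and 1.33 in WT ESCs and 2.01, 2.11 and 3.15 in KO ESCs. The order was the other way at day 3, with 1.83, 2.24 and 1.76 in WT and 0.593, 1.25 and 0.887 in KO. *Nodal* over *Gdf3* was 6.89, 7.78 and 3.58 in WT at day 3 and 2.19, 1.03 and 1.49 in KO. *Cfc1* made up 3.12%, 1.77% and 28.4% of the summed coreceptor RPKM in WT at day 3 and 0.381% at most in KO.

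**Figure D4:**
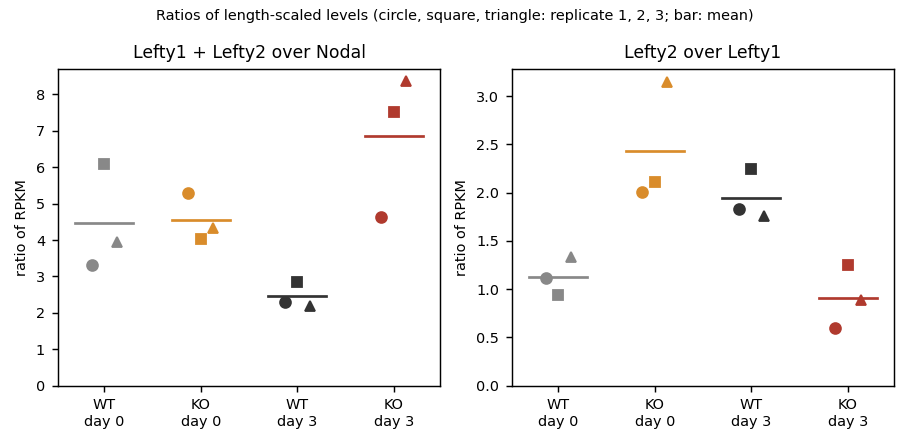
Ratios of RPKM per sample on linear axes from 0, for summed *Lefty1* and *Lefty2* over *Nodal* (left) and *Lefty2* over *Lefty1* (right), with a bar for the mean of each group of 3. At day 3 the 3 KO samples lie above the 3 WT samples on the left and below them on the right.

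A further 36 genes of the Nodal and Activin pathway were read in the same fit, of which 35 had a count row and 34 passed the filter. At day 0, 5 of these 34 were higher and 4 lower in KO, where 9.56% and 10.9% of all tested genes were called in these directions. At day 3, 6 were higher and 11 lower, against 14.3% and 16.7%. The medians were -0.05 and -0.14, against -0.01 and 0 for all tested genes. *Gdf1* had no count row and *Acvr1c* did not pass the filter.

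Among ligands and convertases, 2 of 4 tested genes were higher in KO at each day, against 9.56% of all tested genes at day 0 and 14.3% at day 3. *Inhbb*, which encodes an activin subunit, had 29.19, 47.88 and 34.95 CPM in WT and 61.33, 68.97 and 81.10 CPM in KO at day 0, higher by 0.93 on the log2 scale (SE 0.15, adjusted p = 0.00237 in edgeR). At day 3 it was below 1 CPM in all 6 samples, with a log2 fold change of 1.12 (adjusted p = 0.019 in edgeR). *Pcsk6*, a convertase gene whose product cleaves the Nodal precursor, was higher by 0.92 at day 0 (adjusted p = 0.000531 in edgeR) and by 0.61 at day 3 (adjusted p = 0.00287 in edgeR). Of the 3 tested receptors, none was called at day 0, and *Acvr2a* (-0.58, adjusted p = 0.0159) and *Tgfbr1* (-0.40, adjusted p = 0.00445 in edgeR) were lower at day 3.

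The SMAD genes that carry the signal did not pass the test between genotypes. *Smad2*, *Smad3* and *Smad4* had log2 fold changes of 0.02, -0.07 and -0.13 at day 3, and none of them was called at either day. At day 0 *Smad2* was higher in KO in all 3 pairs without overlap, at 0.39 (95% interval 0.10 to 0.68, adjusted p = 0.0596 in edgeR). Of the 13 SMADs and nuclear cofactors, 2 were higher and 1 lower in KO at day 0, and 4 were higher at day 3. Counted in either direction, these shares are near the 20.4% and 30.9% of all tested genes called at the same days. At day 3 all 4 calls were upward, as were those of 14.3% of all tested genes. *Skil*, which encodes the SMAD corepressor SnoN, had the opposite direction at each day. It had 304.56, 279.49 and 330.81 CPM in WT and 233.60, 186.82 and 216.77 CPM in KO at day 0, a log2 fold change of -0.52 (adjusted p = 0.0154 in edgeR). At day 3 it had 242.35, 291.33 and 289.18 CPM in WT and 409.07, 543.66 and 544.97 CPM in KO, a log2 fold change of 0.86 (adjusted p = 0.000858 in edgeR). The groups were apart at both days, and the interaction was 1.38 (SE 0.17, adjusted p = 0.00138 in edgeR). *Ski* (0.52), *Trim33* (0.54) and *Tgif1* (0.41), whose products restrain or modify SMAD signalling, were also higher in KO at day 3. *Nedd4l*, which encodes a ubiquitin ligase acting on SMADs, was higher in KO at day 0 by 1.13 (adjusted p = 0.015 in edgeR), and had 0.22 at day 3 (adjusted p = 0.582 in edgeR). The difference between the days did not pass for *Nedd4l* (-0.91, adjusted p = 0.13 in edgeR).

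Other antagonists were lower in KO at day 3 for 3 of 6 tested genes, against 16.7% of all tested genes. Of the 3, *Cer1* and *Dand5* passed the filter on low counts only through WT samples, so they could be tested only because they were high there. *Cer1*, which encodes the Nodal inhibitor Cerberus, had 110.60, 45.55 and 79.90 CPM in WT and 0.45, 0.57 and 0.25 CPM in KO, a log2 fold change of -7.53 (SE 0.31, adjusted p = 7.41e-07 in edgeR). *Fst*, the gene of the activin inhibitor follistatin, had 427.84, 420.72 and 102.59 CPM in WT and 26.83, 9.43 and 14.76 CPM in KO, a log2 fold change of -4.25 (SE 0.73, adjusted p = 0.00226 in edgeR). *Cer1* and *Fst* were thus lower while *Lefty1* was higher in the same samples. *Dand5* was lower at both days but stayed at 1.71 CPM or less. Summed streak markers were 664.0 to 1496.0 CPM in WT and 76.8 to 149.4 CPM in KO at this day, and their part in these differences was not tested.

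Of the 8 genes listed as targets, 6 were lower in KO at day 3 and none was higher, against 16.7% and 14.3% of all tested genes. The Lefty genes, also induced by the pathway, are not on this list, and *Lefty1* was higher in KO at this day. The list therefore does not stand for all genes that the pathway induces. *Sox17* too passed the filter only through WT samples. The log2 fold changes were -7.10 for *Lhx1*, -5.95 for *Sox17* and -5.50 for *Mixl1*, all transcription factor genes of mesoderm or endoderm. *Foxa2*, an endoderm and node factor, had 88.69, 59.06 and 55.50 CPM in WT and 1.40, 1.19 and 2.16 CPM in KO, and the log2 fold change was -5.44 (adjusted p = 2.2e-05 in edgeR). The study had already reported defective induction of *Lhx1*, *Mixl1* and *Foxa2* in differentiating KO cells. The list was chosen with earlier results known, so its count of 6 lower genes is not independent of them. *Pmepa1*, whose product inhibits SMAD signalling, was higher in KO at day 0, at 37.92, 63.30 and 52.02 CPM against 16.42, 23.73 and 24.97 CPM (1.22, adjusted p = 0.00819 in edgeR). At day 3 its value was -0.28 (adjusted p = 0.441 in edgeR). The effect differed between the days for *Pmepa1* (-1.5, adjusted p = 0.0202 in edgeR). Summed fibroblast markers were also higher in KO in each pair of day 0, and their part in the values of *Pmepa1* was not tested.

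**Figure D5:**
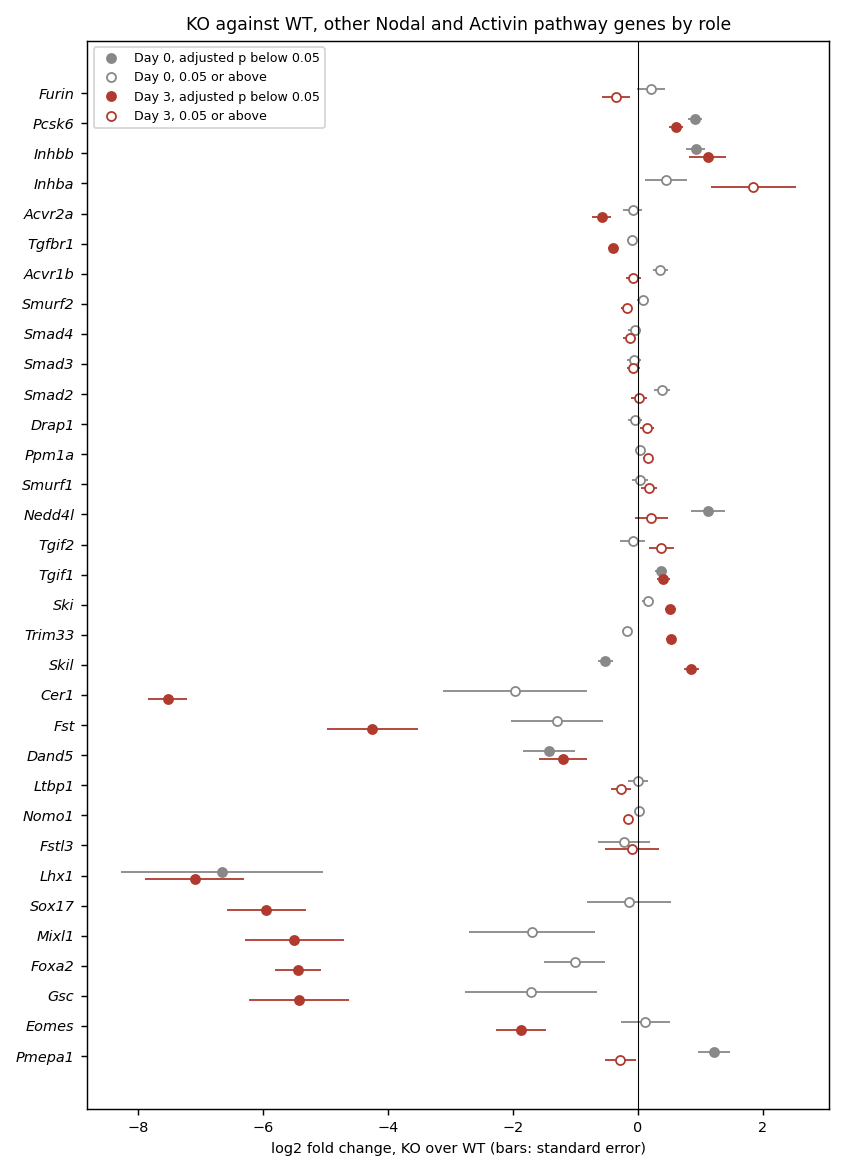
Log2 fold changes of KO over WT at day 0 (grey) and day 3 (red) for 33 of the 34 other tested pathway genes, ordered by role and then by the day 3 value, with bars for the standard error and filled points where the adjusted p was below 0.05 in edgeR. *Cer1*, *Fst* and 6 target genes lie left of 0 with filled points at day 3, while most SMAD and cofactor genes lie within 1 log2 unit of 0.

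Likeness of pattern was measured as Pearson's correlation of log2 CPM over the 12 samples among 10613 protein-coding genes with a mean of at least 5 CPM. The samples form 4 groups, so the values mostly describe group means. Closest to *Nodal* were *Pla2g4c* (0.964), *Fosb* (0.949), *Dnajb11* (0.945), *Pdcd10* (0.934) and *Arcn1* (0.933). *Lefty2* was closest to *Acot7* (0.970), *Trak1* (0.960), *Tfb2m* (0.955), *Hal* (0.954) and *Gli2* (0.952). No gene of the pathway was among these. *Lefty2* had a correlation of 0.751 with *Nodal* and ranked 1016 by likeness to it, and *Lefty1* had 0.431.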

How the data were processed

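Polyadenylated RNA of 12 samples (WT and *Meteor* KO, days 0 and 3, 3 replicates each) was sequenced as single reads. The deposited values are raw read counts per gene. Per the labels and the study's methods, the authors used cutadapt 1.3 for trimming, STAR 2.4.2a for alignment on GRCm38 and HTSeq 0.6.1 for counting. The strand setting is not given in the sources used here. The 5 summary rows were left out, and alignments to several places (36.52% to 44.09% of those accounted for) are not in the gene counts. Symbols and lengths came from GENCODE M21 (GRCm38).

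Genes above 1 CPM in at least 1 sample (15673) entered the quasi-likelihood test of edgeR 4.0.16 (R 4.3.3) under TMM scaling, with the 4 groups and the replicate number as a block, since the study's methods add a batch factor. Genes were called at a Benjamini-Hochberg adjusted p below 0.05 over all tested genes, with no fold change minimum. Standard errors derive from the log2 fold change and F statistic. Same-numbered WT and KO samples of a day deviated together (r 0.359 to 0.74 over 6 pairs and 10514 genes), but not across days (mean -0.062). The block of the main fit is shared by both days, so it does not follow this pairing, as the block within each day does. Replicates differed beyond sampling noise (chi-square per gene 10.58 to 50.78). Alternatives used limma 3.58.1 and DESeq2 1.42.0, other filters, normalization, blocks and samples. The scripts were tested on simulated data. Members, lists and tests were chosen with earlier results of these data known. The named genes were the 9 members, pathway genes listed by role, of which called genes were named first, with at most 4 per role, and the 5 genes most like *Nodal* or *Lefty2*. *Smad2*, *Smad3* and *Smad4* are named besides. The values of 1 pathway gene are not reported here, though the counts include it. Markers of pluripotent, fibroblast, streak, visceral endoderm and neuroectoderm cells were summed. The neuroectoderm sum was 100.5 to 186.4 CPM in WT and 42.2 to 54.6 in KO at day 0, and 90.6 to 162.9 and 63.0 to 87.8 at day 3. It was mostly *Nes*, and at day 3 *Sox1* (4.41 to 7.69 CPM in KO, 0.57 to 1.54 in WT) and *Pax6* (2.44 to 3.28 in KO, 0.61 to 1.14 in WT) went the other way. The median depth was 19651103 counts, and counting error limits low genes.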

Additional observations from a re-analysis of the deposited data

Results flagged for a closer look

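For 3 genes the KO effect at day 3 differed from that at day 0 by the interaction term of edgeR's quasi-likelihood test. *Lefty1* had a difference of 2.12 on the log2 scale, from -0.38 at day 0 to 1.74 at day 3. *Gdf3* had 1.67, from -0.12 to 1.55. *Tdgf1* had -1.33, from 0.12 to -1.21, and the call for this gene was lost in 10 of the 12 fits that left out 1 library.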

How the results depend on the processing

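The count of the 9 genes called at day 0 was 0 and became 1, *Lefty2*, with the replicate block within each day, DESeq2, unfiltered counts, only the 6 samples of the day, or without both WT libraries numbered 3. The last setting was chosen after seeing the data. The count for the interaction was 3 and became 5 with the block within each day. Of the other pathway genes, 9 were called at day 0, and 15 with only the 6 samples of the day or 5 without both WT libraries numbered 3. At day 3, 17 were called, and 9 of the 25 left with at least 10 counts in every sample. For the interaction 7 were called, 17 with the block within each day and 11 with DESeq2. Of all tested genes, 3201 were called at day 0, against 5447 with the block within each day, 5356 with only the 6 samples of the day and 1684 without both WT libraries numbered 3. At day 3 it was 4846, against 7347 with the block within each day and 2754 without these libraries. For the interaction it was 2436, against 4889 and 1438. The cause of these changes was not tested. Without any replicate block, no call among the 9 genes changed except that of *Tdgf1* in the interaction. At least 10 counts in every sample removed *Cfc1*.

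Leaving out 1 library at a time gave 0 to 1 of the 9 genes at day 0, 4 to 5 at day 3, 7 to 8 for the course in WT, 6 for that in KO and 2 to 5 for the interaction. Of the other pathway genes it gave 5 to 10 at day 0, 15 to 18 at day 3, 21 to 25 in WT, 16 to 24 in KO and 4 to 9 for the interaction. Over all genes it gave 1717 to 3480 at day 0, 2907 to 5079 at day 3, 7257 to 8684 in WT, 7499 to 9056 in KO and 1391 to 2397 for the interaction. The sign turned only for values that did not pass. At day 0 *Gdf3* ranged from -0.24 to 0.03 and *Tdgf1* from -0.03 to 0.28. *Smad7* ranged from -0.05 to 0.44 at day 3 and from -0.23 to 0.20 for the course in KO. *Lefty1* ranged from -0.26 to 0.32 for the course in KO. *Tdgf1* ranged from -0.44 to 0.02 for the course in WT, and was 0.09 without both WT libraries numbered 3. For the interaction *Lefty2* ranged from -0.55 to 0.01 and *Foxh1* from -0.33 to 0.05. *Cfc1* had 10 reads or fewer in 9 libraries, which limits its values.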
